A study of Mus musculus with 12 samples.

Results

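The miR-23, miR-24 and miR-27 microRNAs are made from a pair of short gene clusters, and their levels were compared between heart muscle cells and cultured nonmyocytes of the mouse heart. Members were taken by name from the small RNA count table, as every arm counted on the annotated strand of a precursor called miR-23a, miR-23b, miR-24, miR-27a or miR-27b. The table holds 850 combinations of precursor arm and strand, and 10 of them, from 5 precursors, met that rule. The source was 3 hearts of female wild-type mice of the inbred strain FVB/NJ, taken apart with collagenase at 12 weeks of age. Cardiomyocytes, the contracting cells, were lysed at once, whereas nonmyocytes were first grown in culture into what the protocol calls largely fibroblasts. The labels differ on that culture, with 2 passages in the protocol and passage 1 in the cell type label. The labels name no transgene or drug for either fraction. Each fraction gave 3 small RNA libraries and 3 libraries of polyadenylated RNA. Cell type and time in culture differ together between the fractions and cannot be told apart in any value below. A difference between such bulk samples also does not tell fewer cells of a type from less RNA per cell.

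MicroRNAs are short RNAs that guide Argonaute proteins to messenger RNAs and lower their output. Each is cut from a hairpin precursor whose stem gives an arm from its 5′ side (5p) and an arm from its 3′ side (3p), and as a rule only one of them is kept in bulk. Bases 2 to 8, the seed, pair with the target. The miR-23, miR-27 and miR-24 hairpins lie in a row in each cluster and can be cut from the same primary transcript. In the heart and its vessels they are known for effects on blood vessel growth, on cell survival and on calcium release in cardiomyocytes, and they are known to be abundant in endothelial cells, the lining of blood vessels.

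The mature sequences are shown because shared seeds and near-identical copies decide which arms can be told apart. They are RefSeq's (build GRCm38.p6), written 5′ to 3′ with the seed in capitals, and 9 of the 10 members had an entry. miR-23b-3p had none.

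miR-23a-3p: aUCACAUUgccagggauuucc
miR-27a-3p: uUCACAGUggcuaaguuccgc
miR-27b-3p: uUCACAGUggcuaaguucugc
miR-24-3p: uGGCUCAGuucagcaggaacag
miR-24-2-5p: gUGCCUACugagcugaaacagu
miR-24-1-5p: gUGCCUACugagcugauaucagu
miR-27a-5p: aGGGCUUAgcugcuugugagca
miR-27b-5p: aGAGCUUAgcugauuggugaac

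miR-27a-3p and miR-27b-3p share their seed and differ at 1 base in all, C19U, counted from the 5′ end with miR-27a-3p first. The miR-23a-3p seed differs from theirs at 1 base (U7G, miR-23a-3p first). miR-24-3p is the same sequence from both clusters. The 5p arms of miR-24-2 and miR-24-1 share a seed and are 22 and 23 bases long. Compared position by position without gaps they differ at 5 positions near the 3′ end, a number that includes the shift from the unequal length. How the authors' counting placed reads that match several copies is not given in the sources used here. The values of miR-27a-3p, miR-27b-3p and miR-24-2-3p are therefore uncertain. Whether this also holds for miR-23a-3p and miR-23b-3p was not checked, since miR-23b-3p had no entry.

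In the mm9 coordinates of the files, the miR-23a, miR-27a and miR-24-2 arms span 86732426 to 86732795 on the plus strand of chromosome 8. No gene of the deposited annotation overlaps them. The nearest coding gene, Zswim4, lies 3050 bases further on, on the opposite strand. The miR-23b and miR-27b arms span 63401800 to 63402088 on the plus strand of chromosome 13. They lie inside 2010111I01Rik, an aminopeptidase gene also called Aopep, on the same strand (63116294 to 63427404), and all 4 of those arms fall in its introns. No row of the table carries the name of miR-24-1, the third precursor of that cluster.

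Small RNA depth was uneven, with 412739 to 6311625 counts in cardiomyocytes and 83170 to 1255622 in nonmyocytes. The shallowest libraries were cardiomyocyte library 1 and nonmyocyte library 3. Levels below are CPM, counts relative to library size scaled by the trimmed mean of M values (TMM), whose factors were 0.513 to 0.603 in cardiomyocytes and 1.62 to 1.90 in nonmyocytes. The level that 3 counts stand for ranged from 0.928 CPM in cardiomyocyte library 3 to 20.4 CPM in nonmyocyte library 3. Log2 fold changes are cardiomyocyte minus nonmyocyte with their standard error. Small RNA markers of cardiomyocytes (miR-1a, miR-133a, miR-208a, miR-499) summed to 203949.5, 335958 and 371876 CPM across the cardiomyocyte libraries in order and to 167, 250.1 and 15230.3 CPM across the nonmyocyte ones. Nonmyocyte library 3 thus stood apart from its group in these markers as well as in depth. Most of each sum was miR-133a. Its miR-133a-2-3p arm alone held 159869, 259184 and 283712 CPM in cardiomyocytes and 122, 165 and 9780 CPM in nonmyocytes. Of 8 tested arms of these markers 6 were higher in cardiomyocytes (edgeR, adjusted p under 0.05), against 19.0% of all arms tested. miR-1a-1-3p and miR-208a-3p missed that threshold (edgeR, adjusted p = 0.082 and 0.138), and their groups overlapped.

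Of 343 arms that passed the filter on low counts, 8 were members, and none of the 8 was called different between the fractions (adjusted p under 0.05 by the quasi-likelihood test of edgeR). None had an unadjusted p under 0.05 either. Over all arms tested 52.8% were called, 19.0% higher and 33.8% lower in cardiomyocytes. DESeq2 also called no member, where it called 57.4% of all arms. Of the members, limma voom called only miR-27b-5p, as lower (limma voom adjusted p = 0.0344), where it called 53.6% of all arms. The median log2 fold change of the 8 members was 0.31, against -0.23 over all arms tested. The members' median was -0.045 without cardiomyocyte library 3, 0.010 without nonmyocyte library 2 and between 0.27 and 0.81 when any other single library was left out. The 3p arms other than miR-24-2-3p lay at 0.54 to 1.09 and the 5p arms at -1.19 to -0.65, none of them called. The 2 members that were too low to test, miR-23a-5p and miR-23b-5p, held at most 5 counts in any library.

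miR-27b-3p was the most abundant member in every library. In order of library number it held 7332, 30646 and 57265 CPM in cardiomyocytes and 24350.2, 18082 and 14639.8 CPM in nonmyocytes, and every later set of values keeps that order. Cardiomyocyte library 1 was lowest of all and cardiomyocyte library 3 highest, so the groups overlapped. The means were 31748 ± 24985 and 19024 ± 4923 CPM (SD, n = 3 each), a log2 difference of 0.74 ± 0.74 (edgeR, adjusted p = 0.448). Without cardiomyocyte library 3 that difference was 0.13, and without nonmyocyte library 1 it was 1.45. This arm alone took 81.3% to 87.2% of the members' counts in cardiomyocytes and 78.5% to 87.5% in nonmyocytes. Among all rows of a library it ranked 19, 8 and 7 in cardiomyocytes and 5, 6 and 5 in nonmyocytes.

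The copy from the other cluster, miR-27a-3p, stood far below it, at 438, 1184 and 2734 CPM in cardiomyocytes and 839.98, 535 and 679 CPM in nonmyocytes. Cardiomyocyte libraries 2 and 3 lay above every nonmyocyte library and cardiomyocyte library 1 lay below them all. Its log2 fold change was 1.09 ± 0.68 (edgeR, adjusted p = 0.220).

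miR-23a-3p and miR-23b-3p followed the same order of libraries. miR-23a-3p held 369.8, 1428 and 1718 CPM in cardiomyocytes and 1063, 659 and 692 CPM in nonmyocytes. miR-23b-3p held 563, 2186 and 2500.5 CPM in cardiomyocytes and 1035, 769 and 794 CPM in nonmyocytes. For both, cardiomyocyte library 1 was the lowest of the 6 libraries and the other cardiomyocyte libraries the highest. Their log2 fold changes were 0.54 ± 0.62 and 1.02 ± 0.60 (edgeR, adjusted p = 0.4995 and 0.201). The CPM ranges of miR-27a-3p, miR-23a-3p and miR-23b-3p, which are 21 bases long each, overlapped in each fraction. Ratios within libraries, given further on, compare such arms more closely.

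miR-24-2-3p, known as a brake on the cell death gene Bcl2l11 in the heart, varied widely from library to library. It held 56.3, 436 and 886 CPM in cardiomyocytes and 119, 70.9 and 1154 CPM in nonmyocytes. Nonmyocyte library 3 alone was above every cardiomyocyte library, and its log2 level was 3.63 above the mean of the other nonmyocyte libraries. Of 172 arms at a mean of 100 CPM or more, 9.88% were 3 or more above those libraries in the same way. The summed cardiomyocyte microRNAs were likewise highest of the nonmyocytes in that library, and their part in this value was not tested. The log2 fold change of miR-24-2-3p was 0.07 ± 1.24 (edgeR, adjusted p = 0.972).

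**Figure D1:**
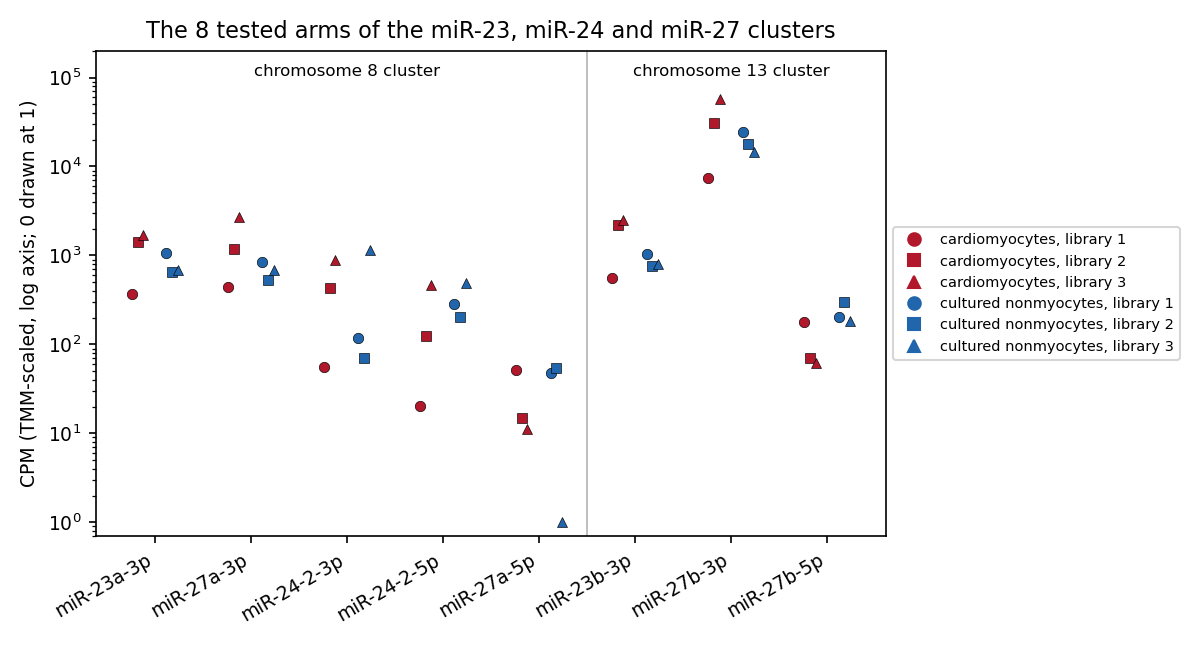
CPM on a log axis of the 8 tested arms, by cluster, with 1 point for each library and its shape for the library number. Cardiomyocyte library 1 is the lowest point of its group for all 3p arms and the highest for miR-27a-5p and miR-27b-5p, and miR-24-2-3p in nonmyocyte library 3 lies at 1154 CPM.

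The 5p arms, usually the discarded strands of these hairpins, were ordered differently. miR-27b-5p held 177, 70.5 and 61.8 CPM in cardiomyocytes and 203, 303 and 183 CPM in nonmyocytes. It was the only one of the 8 tested members whose groups did not overlap, against 57.7% of all arms tested. That separation was narrow, with 44 counts in cardiomyocyte library 1 against 27 in nonmyocyte library 3, where 1 count stands for 6.79 CPM. The fitted log2 difference was -1.19 ± 0.59 (edgeR, adjusted p = 0.135). miR-27a-5p held 52.3, 14.9 and 11.1 CPM in cardiomyocytes and 47.8, 53.7 and 0 CPM in nonmyocytes, where the 0 lies under a floor of 20.4 CPM. In the fit the fractions differed by a log2 value of -0.68 ± 1.00 (edgeR, adjusted p = 0.588). miR-24-2-5p held 20.1, 123 and 468 CPM in cardiomyocytes and 281, 203 and 489 CPM in nonmyocytes, with overlapping groups. Its log2 fold change was -0.65 ± 0.97 (edgeR, adjusted p = 0.594).

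Single libraries decided which members were called. Without cardiomyocyte library 1, miR-23b-3p (1.44) and miR-27a-3p (1.53) rose and miR-27b-5p (-1.80) fell (edgeR, adjusted p = 0.0127, 0.0290 and 0.0165), where 57.5% of all arms were called. Without nonmyocyte library 3, only miR-24-2-3p was called, at a log2 difference of 2.45 (edgeR, adjusted p = 0.0421), where 53.4% of all arms were called. Leaving out both of these shallow libraries, a choice made after seeing the data, gave 6 calls among the 8 members, where 67.6% of all arms tested were called. miR-23b-3p (1.38), miR-24-2-3p (2.80), miR-27a-3p (1.52) and miR-27b-3p (1.06) were then higher in cardiomyocytes and miR-27a-5p (-1.96) and miR-27b-5p (-1.93) lower. The highest adjusted p of these 6 was 0.0465, for miR-27b-3p (edgeR). In log2 level, the 3p members in cardiomyocyte library 1 lay 2.03 to 3.43 below the mean of the other cardiomyocyte libraries. The same library lay 2 or more below them for 20.9% of the 172 arms at 100 CPM or more. What sets that library apart was not tested.

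The direction of the 3p arms also rested on the scaling. As a share of all counts, the members took 0.543%, 2.14% and 3.36% in cardiomyocytes and 4.51%, 3.92% and 3.30% in nonmyocytes. With library totals alone as the scale all 8 tested members were negative, at a median of -1.37, where with TMM 5 were positive and 3 negative. All arms then had a median of -1.90, a shift of -1.67. A change of scale moves all arms nearly alike, so the members stood 0.53 above the median arm under either scaling. With TMM that distance was 0.25 without nonmyocyte library 2 and 1.04 without cardiomyocyte library 1. Only miR-27b-5p was called with library totals (-2.80, edgeR, adjusted p = 0.00745), where 62.7% of all arms were called.

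**Figure D2:**
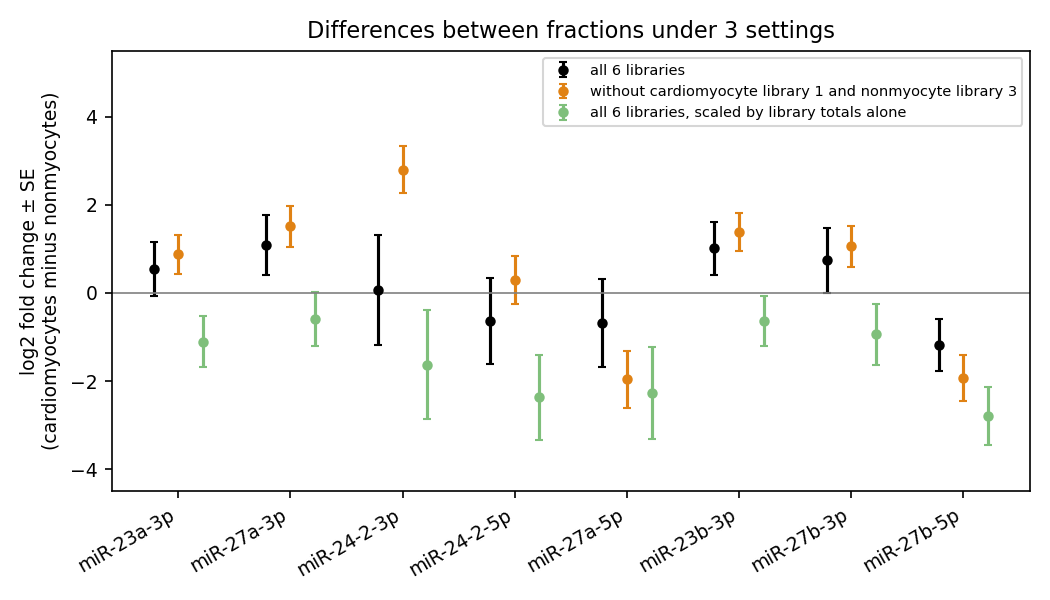
Log2 fold change with its standard error for the 8 tested arms, from all 6 libraries, without the 2 shallowest libraries, and with library totals as the only scaling. miR-27a-5p and miR-27b-5p are negative in all 3 settings, and the 3p arms are positive with TMM and negative with library totals.

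The miR-24-1 locus was counted under another name. A transcript on the minus strand of chromosome 13, named by a clone in the table, carries the identifier that GENCODE M21 gives to Mir3074-1. In RefSeq (GRCm38.p6) the Mir24-1 hairpin, 63301208 to 63301275 on the plus strand, lies wholly inside that of Mir3074-1, 63301199 to 63301283 on the minus strand. Reads on the strand opposite to its 5p arm, at 63402550 to 63402571 in mm9, numbered 81, 2980 and 11028 in cardiomyocytes and 647, 224 and 4244 in nonmyocytes. That row begins 482 bases after the start of miR-27b-3p, while RefSeq places miR-24-3p of Mir24-1 491 bases after it in GRCm38.p6. The other 3 spacings checked between arms were equal in both builds. Reads on the minus strand there numbered at most 2 in any library. Whether the opposite-strand reads are miR-24-3p cannot be read from counts alone, and the row does not belong to the members.

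That row, like miR-24-2-3p, was highest in nonmyocyte library 3. It held 326, 1641 and 3409.8 CPM in cardiomyocytes and 319, 215 and 28805 CPM in nonmyocytes, where library 3 stood far above the rest. It took 5.10% of all counts of that library and at most 0.175% of any other. Per read of miR-24-2-3p it held 5.79, 3.76 and 3.85 reads in cardiomyocytes and 2.68, 3.03 and 24.96 in nonmyocytes. The fitted log2 difference was -2.44 ± 1.78 (edgeR, adjusted p = 0.291).

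Ratios of counts inside a library do not depend on scaling and were compared with 9 exact permutation tests. In these, 3 libraries against 3 cannot give a two-sided p below 0.10. Ratios between copies can still depend on how reads that match several copies were placed. The ratio of miR-23a-3p to miR-23b-3p was 0.657, 0.653 and 0.687 in cardiomyocytes and 1.03, 0.857 and 0.872 in nonmyocytes. Every cardiomyocyte library lay below every nonmyocyte library. In the shallow libraries the counts were few. miR-23a-3p and miR-23b-3p held 92 and 140 counts in cardiomyocyte library 1 and 102 and 117 in nonmyocyte library 3. The counting error of these ratios was not computed. On the log2 scale the means were -0.59 ± 0.04 and -0.13 ± 0.14 (SD, n = 3 each), a difference of -0.46 (exact permutation p = 0.10, adjusted over 9 tests 0.600). That is the smallest p this design allows, and it did not pass the correction. miR-23b-3p was the more abundant arm in all 3 cardiomyocyte libraries and in nonmyocyte libraries 2 and 3, and miR-23a-3p in nonmyocyte library 1. The same ratio for miR-27a-3p over miR-27b-3p was 0.0598, 0.0386 and 0.0477 in cardiomyocytes and 0.0345, 0.0296 and 0.0464 in nonmyocytes. These groups overlapped, and the log2 difference of 0.41 pointed the other way (exact permutation p = 0.20, adjusted 0.600). Between the 5p arms, the log2 difference was 1.32 for miR-27a-5p over miR-27b-5p and -0.56 for miR-23a-5p over miR-23b-5p, with overlapping groups (exact permutation p = 0.40 and 0.70). The first of these rests on the 0 counts of miR-27a-5p in nonmyocyte library 3. Without that library it was 0.15, and with 0.1 or 1 added to each count in place of 0.5 it was 2.07 or 1.01.

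The 5p share of a precursor's counts differed widely between precursors. miR-24-2 gave 26.3%, 22.05% and 34.5% of its counts on the 5p arm in cardiomyocytes and 70.3%, 74.1% and 29.8% in nonmyocytes. Exact 95% Clopper-Pearson intervals, which cover counting error only, were widest for cardiomyocyte library 1 (9.15% to 51.2%, 19 counts). They ran from 67.0% to 73.4% and from 68.6% to 79.1% in nonmyocyte libraries 1 and 2 and from 24.1% to 35.9% in nonmyocyte library 3. Nonmyocyte libraries 1 and 2 lay above all cardiomyocyte libraries, and library 3 lay among them (difference of means -30.4 percentage points, exact permutation p = 0.20, adjusted 0.600). Because miR-24-3p has the same sequence from both clusters, this share also moves with the reads assigned to the other copy.

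The other precursors gave nearly all of their counts on the 3p arm. For miR-27b the 5p share was 2.36%, 0.229% and 0.108% in cardiomyocytes and 0.828%, 1.65% and 1.24% in nonmyocytes. Cardiomyocyte libraries 2 and 3 lay below all nonmyocyte libraries and cardiomyocyte library 1 above them (exact permutation p = 0.70). For miR-27a it was 10.7%, 1.24% and 0.405% in cardiomyocytes and 5.39%, 9.12% and 0% in nonmyocytes (exact permutation p = 1.00). The 0% rests on 100 counts and has an upper 95% bound of 3.62%. The shares of miR-23a and miR-23b were at most 1.41% in any library.

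**Figure D3:**
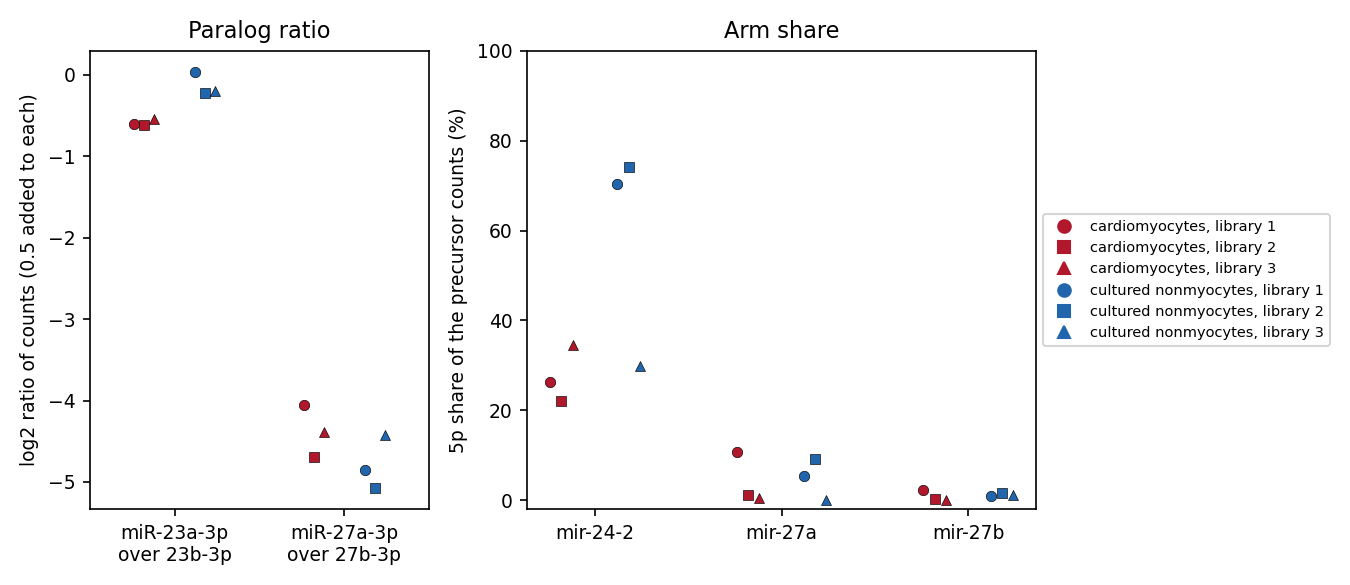
Left, the log2 ratio of counts between matching 3p arms of the 2 clusters, and right, the 5p share of each precursor's counts in percent, with 1 point for each library. The miR-23a-3p to miR-23b-3p ratio is lower in all 3 cardiomyocyte libraries, and the 5p share of miR-24-2 is 70.3% and 74.1% in nonmyocyte libraries 1 and 2.

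Other arms varied over the libraries much as miR-27b-3p did. Among 165 arms outside the clusters at a mean of 100 CPM or more, the 5 with the highest Pearson correlation of log2 CPM over the 6 libraries were miR-16-2-5p (0.988), miR-22-3p (0.977), the 5p arm of a clone-named precursor (0.966), miR-125b-2-3p (0.962) and miR-29a-3p (0.961). All 5 were lowest in cardiomyocyte library 1, as miR-27b-3p was, which their choice by correlation over the same libraries favours. Within the clusters miR-27b-3p correlated at 0.973 with miR-23a-3p, 0.925 with miR-23b-3p and 0.932 with miR-27a-3p, at 0.562 with miR-24-2-3p and at -0.67 with its own 5p arm. These values share libraries and depth and are given as a description.

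Most tested markers of endothelial cells, in which these clusters are known to be abundant, were higher in the cardiomyocyte fraction. Of the 5 polyadenylated endothelial markers listed, 4 were tested and Cdh5, Kdr and Tie1 were higher, where 31.6% of all genes tested were called higher. Emcn was at -0.70 and not called, and Pecam1 held at most 3 counts in any library. Their summed level was 313 to 688 CPM in cardiomyocytes and 72.0 to 84.4 CPM in nonmyocytes. Both arms of the endothelial microRNA miR-126 also rose, the 3p arm by 3.71 and the 5p arm by 3.49 on the log2 scale (edgeR, adjusted p = 0.0176 and 0.0217). The pericyte gene Rgs5 was higher as well (5.09), while the smooth muscle and pericyte markers Myh11 (-2.83) and Pdgfrb (-2.96) were lower. Cardiomyocyte markers were higher in all 5 cases and fibroblast markers lower in all 5. The part of endothelial RNA in the levels of the clusters was not tested.

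In polyadenylated RNA the host gene of the chromosome 13 cluster, 2010111I01Rik, was higher in cardiomyocytes. It held 47.5, 58.8 and 48.0 CPM in cardiomyocytes and 25.8, 25.2 and 29.7 CPM in nonmyocytes. All cardiomyocyte libraries lay above all nonmyocyte libraries, with a log2 difference of 0.94 ± 0.19 (edgeR, adjusted p = 0.000642). Other annotated genes cover 14.1% of its exon bases, and with library totals as the scale the difference was 0.25 and not called (edgeR, adjusted p = 0.199). A noncoding transcript of the same strand, n275653, begins 492 bases after miR-27b-3p. It held 90.5, 76.1 and 75.5 CPM in cardiomyocytes and 14.8, 21.2 and 20.1 CPM in nonmyocytes. In the fit the fractions differed by a log2 value of 2.11 ± 0.20 (edgeR, adjusted p = 8.57e-07), and other annotated genes cover 31.6% of its exon bases. These libraries do not keep the strand.

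Of the other genes around the clusters, Zswim4 beside the chromosome 8 cluster was lower in cardiomyocytes. It held 12.98, 16.7 and 16.5 CPM in cardiomyocytes and 36.1, 35.4 and 32.4 CPM in nonmyocytes, without overlap. Its log2 fold change was -1.16 ± 0.21 (edgeR, adjusted p = 0.000297). Fancc, a DNA repair gene that lies 3929 bases from the chromosome 13 cluster, was at 0.04 and not called, and so was the noncoding n271048 at -0.77. The noncoding n291361 was called higher (1.35, edgeR, adjusted p = 0.0442) with overlapping groups, and without cardiomyocyte library 1 it was at 0.33 and not called. Nanos3 and Fbp1 were too low to test, and n295624, whose bases all lie in other genes, had 0 counts in every library.

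Messenger RNAs reported elsewhere as targets of these microRNAs went both ways. Of 25 such genes, all tested and short of the full list by 1 gene not reported here, 12 rose in the cardiomyocyte fraction, 7 fell and 6 missed the threshold. Over all 14734 genes tested 63.7% were called, 31.6% higher and 32.1% lower. Targets of miR-24 had a median log2 fold change of -0.77 and those of miR-27 of 1.57, against -0.02 over all genes tested. The list was written from general knowledge of the field, so it does not show that any of these genes is a target in these cells.

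Among the 5 miR-23 targets given here, from the list that lacks that gene, 3 were higher and 2 lower. Trim63 and Fbxo32, muscle ubiquitin ligases of the atrophy program, had log2 fold changes of 7.04 ± 0.30 and 5.28 ± 0.20. Trim63 held 956, 620.2 and 586 CPM in cardiomyocytes and 6.87, 5.89 and 3.65 CPM in nonmyocytes. The transcription factor gene Foxo3, which drives that program, was higher as well (1.59). The growth factor signalling inhibitor Spry2 (-1.18) and the signal carrier Smad3 (-0.83) were lower. The highest adjusted p of these 5 was 0.00127, for Smad3 (edgeR).

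Of 12 reported miR-24 targets 3 were higher, 5 lower and 4 not called. Jph2 codes for junctophilin-2, which holds the calcium release sites of cardiomyocytes to the cell membrane. It held 1329, 1396 and 1154 CPM in cardiomyocytes and 291, 239 and 258 CPM in nonmyocytes, a log2 difference of 2.30 ± 0.17 (edgeR, adjusted p = 7.05e-08). The cell cycle inhibitor Cdkn1b (0.89) and the protease gene Furin (0.74) were also called higher, but with library totals as the scale they were at 0.21 and 0.06 and not called. Cdkn2a, a cell cycle inhibitor gene, held 0.775, 0.829 and 0.824 CPM in cardiomyocytes and 55.8, 56.5 and 59.99 CPM in nonmyocytes. The fitted log2 difference was -6.12 ± 0.25 (edgeR, adjusted p = 3.93e-10). The kinase gene Pak4 (-1.35), the growth regulator Myc (-1.24), the histone gene H2afx (-1.16) and the stress gene Trib3 (-1.69) were lower too. Bcl2l11, the cell death gene named above, was at 0.56 with overlapping groups, and Gata2, E2f2 and Acvr1b were at -0.38, -1.77 and 0.77. None of these 4 was called.

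Of 8 reported miR-27 targets 6 were higher, none was lower and 2 were not called, where 31.6% of all genes tested were called higher. Phb codes for a mitochondrial scaffold protein and held 164, 141 and 132 CPM in cardiomyocytes and 38.8, 38.8 and 32.8 CPM in nonmyocytes. In the fit the fractions differed by a log2 value of 1.98 ± 0.17 (edgeR, adjusted p = 3.72e-07). The ubiquitin ligase gene Fbxw7 (2.28 ± 0.20), the thyroid hormone receptor gene Thrb (2.92 ± 0.26) and the guidance gene Sema6a (3.41 ± 0.44) were also higher. Sema6a, known as a brake on endothelial sprouting, held 7.17, 19.7 and 22.8 CPM in cardiomyocytes and 1.79, 1.35 and 1.55 CPM in nonmyocytes. The transcription factor gene Foxo1 (1.16) and the nuclear receptor gene Rxra (0.64) were called as well, but with library totals they were at 0.53 and -0.032 and not called. The fat cell regulator Pparg was at -0.25 and the transcription factor gene Zbtb10 at 0.45, with overlapping groups.

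**Figure D4:**
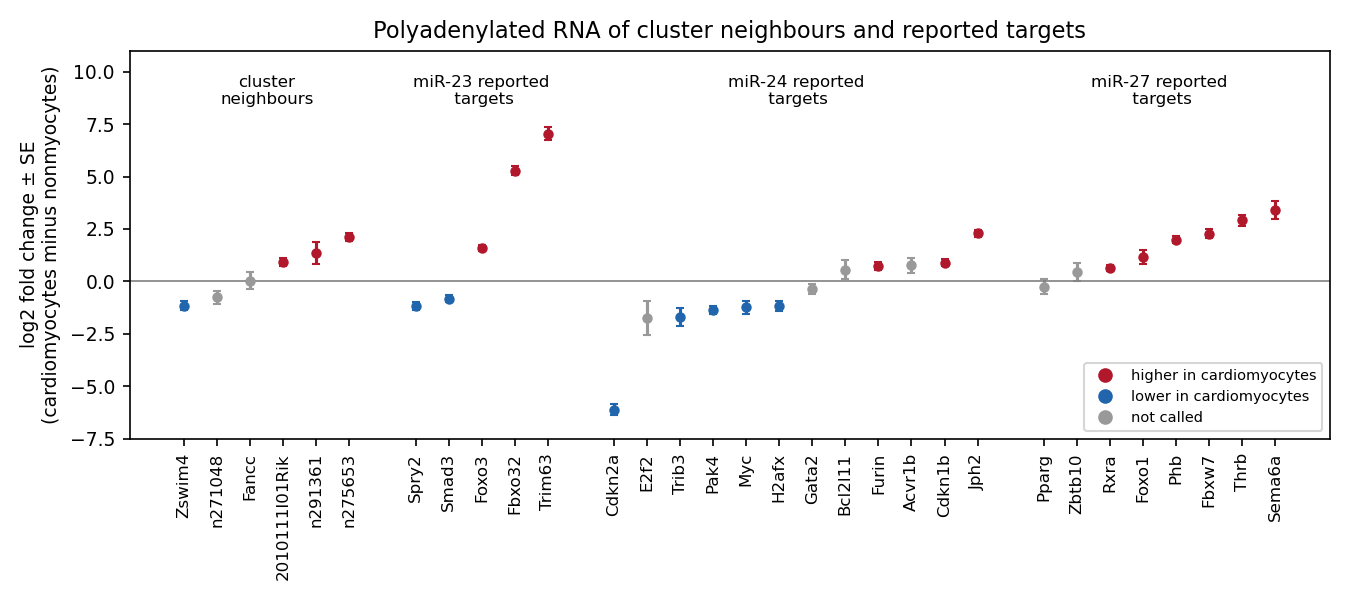
Log2 fold change with its standard error in polyadenylated RNA for the tested genes around the clusters and the reported targets of miR-23, miR-24 and miR-27, with called genes marked. Reported miR-27 targets lie mostly above 0, and reported miR-24 targets lie on both sides of it.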

How the data were processed

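Small RNA and polyadenylated RNA were measured in 3 libraries of each fraction. The deposited tables hold raw counts per microRNA arm and per gene, with no scaling by the authors. Per the submitters' processing notes, Bowtie, TopHat 1.3.0 and HTSeq were used with mm9. The sources used here do not give their settings. The deposited annotation (other columns: feature starts and ends) placed genes around the clusters.

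Counts were tested with edgeR 4.0.16 in R 4.3.3 (filterByExpr minimum 10, TMM, robust quasi-likelihood, Benjamini-Hochberg under 0.05 over all features). Its standard errors are the fold change over the square root of F. DESeq2 1.42.0 and limma 3.58.1 were alternatives. Arm shares and ratios, with 0.5 added to each count for log2 ratios, had exact two-sided permutation tests. On simulated small RNA data, 53.1% of arms changed by 2 on the log2 scale and 98.9% of those changed by 4 were recovered. The simulation used the same dispersion for all arms, as many rises as falls and no outlying library. Recovery under the conditions of the real libraries was not tested. Polyadenylated libraries held 5956831 to 26851830 counts.

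Members and lists were chosen with earlier results of these data known. Named were all members, the 5 arms most like the most abundant member, the host and nearest coding genes, and the reported targets, of which 1 is not reported here, so no median is given for its list. Noncoding genes within 5 kb and the rows at the miR-24-1 locus were added after their values were seen. The marker written as Mir1-1 was read as Mir1a-1, the name in the table, and Mir1-2 was not analysed here. In cardiomyocytes 2 of 3 macrophage markers tested were lower and 1 was not called, and 7 of 10 mesenchymal microRNA arms were lower. Of smooth muscle and pericyte markers 2 were lower and 1 higher. Of 2 blood microRNA arms tested 1 was higher. Which heart each library came from is not labelled. The p-values therefore rest on the spread between libraries, part of which may be technical.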

Additional observations from a re-analysis of the deposited data

How the results depend on the processing

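With library totals alone, calls went from 65 to 28 arms higher and from 116 to 187 lower, and from 4732 to 7106 genes lower. The share of calls that were higher went from 35.9% to 13.02% for arms and from 49.6% to 30.9% for genes. Log2 fold changes then reversed for miR-23a-3p (-1.10), miR-23b-3p (-0.64), miR-24-2-3p (-1.63), miR-27a-3p (-0.59), miR-27b-3p (-0.94), Bcl2l11 (-0.16), Rxra (-0.032), Zbtb10 (-0.23) and Fancc (-0.62). miR-24-2-3p also reversed with DESeq2 size factors (-0.056), upper quartile scaling (-0.15) and DESeq2 (-0.074), and Fancc with upper quartile scaling (-0.035) and limma voom (-0.034). Without the 2 shallowest libraries, 127 arms were higher and miR-24-2-5p reversed (0.29).

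Leaving out 1 library at a time gave 29 to 95 arms higher and 78 to 128 lower. Fold changes ran from 0.13 to 1.45 for miR-27b-3p, 0.30 to 1.34 for miR-23a-3p, 0.80 to 1.71 for miR-23b-3p, 0.37 to 1.78 for miR-27a-3p, -0.68 to 2.45 for miR-24-2-3p, -1.98 to -0.074 for miR-24-2-5p, -1.58 to 0.27 for miR-27a-5p, -1.80 to -0.55 for miR-27b-5p, -0.55 to 0.026 for Pparg and -0.13 to 0.35 for Fancc. Differences in 5p share ran from -0.299 to 0.419 percentage points for miR-23b, -4.01 to 1.41 for miR-27a and -1.07 to 0.0555 for miR-27b. The difference in log2 ratio ran from -1.52 to 0.43 for miR-23a-5p over miR-23b-5p and from 0.15 to 1.999 for miR-27a-5p over miR-27b-5p. Causes of these changes were not tested, and each such fit also has fewer libraries.

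Deviations of same-numbered libraries correlated at 0.0437, -0.0988 and 0.245 in small RNA and 0.162, 0.0504 and 0.1002 in polyadenylated RNA, so the numbers were not taken to pair samples. With the replicate block, 59 arms were higher and 99 lower, and 4656 genes were higher and 4843 lower. No member was called in that fit, where 46.1% of all arms were called. In small RNA, cardiomyocyte library 1 correlated best with nonmyocyte library 2. The ratio of miR-24-2 to miR-24-1 could not be made without a row named miR-24-1. Depth limits the 5p arms most, since a floor of 3 counts is 20.4 CPM in nonmyocyte library 3.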
